A study of Hippoglossus hippoglossus with 15 samples.

Results

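The transcripts described here are 150 probes of an Atlantic halibut oligonucleotide array whose signal was higher in embryos of 8 cells than from the germ ring stage on. They were chosen from 10180 probe names. A probe was eligible when its mean exceeded -3 in both low and high quality embryos of 8 cells, on a log2 scale relative to the 75th percentile of each array, which 5219 probes did. Eligible probes were ranked by the low quality mean minus the highest of the germ ring, 10-somite and hatching means, and the first 150 were taken, after HH_Contig2338 and HH_Contig2081 had been set aside. Differences between the 8-cell embryos and the later stages therefore describe the choice and are given with no test.

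Total RNA of whole embryos, labelled with Cy3, was hybridized to 15 arrays of 1 colour on 5 slides, with 3 arrays per group. The groups were low quality embryos at the 8-cell stage (8CS, 8 hours post fertilisation, hpf), high quality embryos at the same stage and hour, and high quality offspring at the germ ring stage (GR, 82 hpf), at 142 hpf with 10 somites (10SS), and as larvae that had hatched at 340 hpf (HT). Quality was assigned by the fertilization and hatching success of the batch. All embryos came from eggs of several females fertilized in vitro with pooled sperm, and each group of 3 arrays held 3 batches of eggs, so that p-values measure the spread between batches. Whether the stages shared batches is not given in the sources used here. The methods describe separate collections, at a commercial farm for the stages and at a university for the qualities. Incubators and temperature differed between them, and antibiotics were added to the seawater of the second. The labels, in contrast, give the same farm for all samples. The same 3 high quality 8CS arrays served in the comparison of stages and in that of qualities. If the collections were separate, either comparison may also span sites and incubation, which cannot be told apart from stage or quality.

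An egg carries messenger RNA made by the mother, and the first cleavages of a fish embryo run on this store. Transcription of the embryo's own genome starts at the mid-blastula transition, and many stored transcripts are degraded around that time, through shortening of their poly(A) tails among other routes. The germ ring, the thickened margin where gastrulation starts, forms after this switch. Transcripts that fall from cleavage to gastrulation and are not made anew are the usual signature of a purely maternal supply.

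Between 69.3% and 90.1% of all probes were well above background on an array, and no probe spot was saturated. Markers of differentiated cells fitted the stage labels in part. The hatching gland probe and the plasma protein probes of apoh and hepcidin were well above background on all 3 HT arrays and on no array of the other groups. The plasma protein probe of c3 was so on all 3 HT arrays and on 1 10SS array. The leukocyte probes of lysozyme and clec4e were well above background on arrays of every group. They averaged -1.64 and -3.74 at HT against -5.65 and -6.13 in high quality 8CS. The 3 probes that the study groups with muscle were well above background on every array, 8CS included, so that their presence alone marks no stage. Among them myosin binding protein mybpc3 averaged 2.16 at HT against -2.02 in high quality 8CS, and parvalbumin (pval) averaged 0.01 at HT against 0.60. The mylc6 probe averaged 0.63 (SD 1.16) at 10SS and -0.002 at HT against -2.49 in high quality 8CS. GR replicate 3 and 10SS replicate 1 stood apart for the members, and leaving out 10SS replicate 3 changed the counts over all probes, as the values below show. The number of arrays limits the precision of every value, and in whole embryos fewer cells of a type and less RNA per cell cannot be told apart. With slides that held several groups, values within a slide are given beside the pooled ones.

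The members had a signal at 8CS that the level minimum and the ranking of the rule favoured, so that it is described only. In high quality 8CS the mean of 55 members lay below the 75th percentile of the array, the lowest at -2.78. All 150 were well above background on all 6 8CS arrays, and their median level stood at the 85.5th percentile of all probes in low quality 8CS and at the 83.8th in high quality 8CS. On single arrays the median over members was 1.42, 1.14 and 1.37 (log2, relative to the 75th percentile) in low quality 8CS, against 0.84, 1.02 and 0.98 in high quality 8CS. The GR arrays had -2.32, -2.35 and -1.85, the 10SS arrays -4.71, -3.88 and -4.01, and the HT arrays -4.03, -4.05 and -4.08. The arrays of the later stages thus lay below every 8CS array, GR replicate 3 was the highest later array, and 10SS replicate 1 was the lowest. The median over all probes stayed between -2.77 and -2.37 on the 15 arrays.

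**Figure D1:**
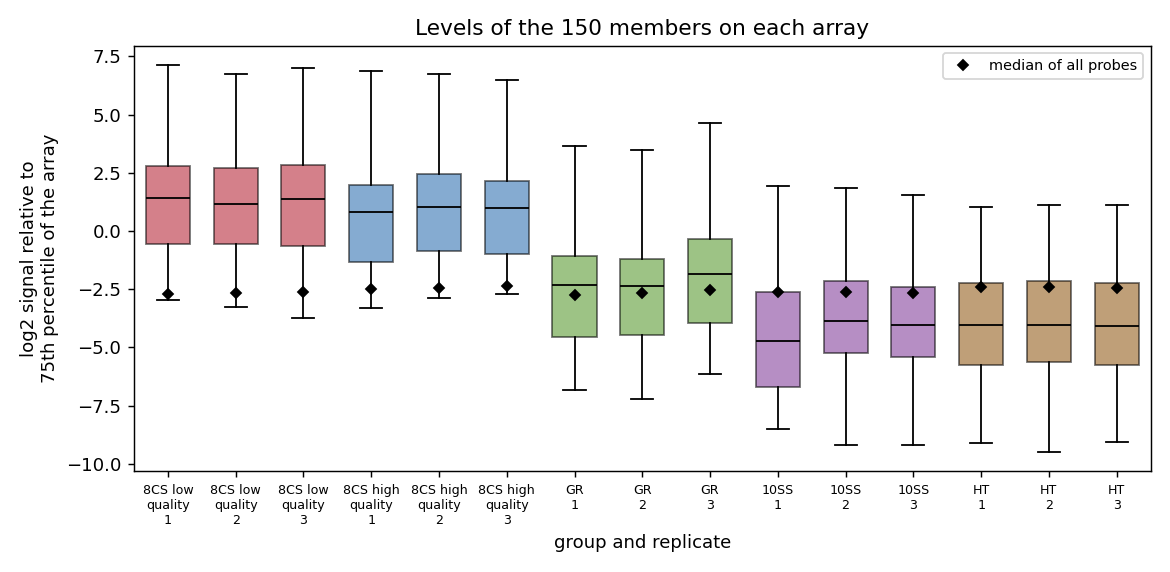
Log2 signal of the 150 members relative to the 75th percentile of the array (vertical axis) on each of the 15 arrays. Boxes span the quartiles with the median, whiskers reach the farthest member within 1.5 box lengths, and diamonds mark the median of all probes. The member medians lie at 0.84 or higher on the 8CS arrays and at -1.85 or lower on the GR, 10SS and HT arrays.

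Stage differences depend on how arrays are set to each other. Spike-in scaling, by 8 spike-in probes in place of the 75th percentile, moved the median difference over all 10180 probes from -0.34 to 1.46 for 10SS minus GR and from -0.30 to 2.34 for HT minus GR, and its results stand beside the main ones. Between GR, 10SS and HT, and between the qualities, a member is said to have risen or fallen when it passed the threshold of an adjusted p under 0.05 and at least 2-fold (limma).

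By median, the level in high quality 8CS exceeded that at GR by 3.15, that at 10SS by 4.56 and that at HT by 4.07 on the log2 scale. With spike-in scaling these medians were 3.41, 3.02 and 1.69, and 148 of the 150 members were higher in high quality 8CS than at HT. The rule used these stages, and nothing is read from these values.

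The members were not absent at GR. Their signal remained well above background on all 3 GR arrays for 121 members, on 2 for 17, on 1 for 8 and on none for 4. The 4 were HH_Contig1659, HH_193888960, HH_166850858 and HH_193890031, named for their small number after their values were seen. At GR the mean of 21 members still exceeded the 75th percentile of the array, against 5 at 10SS and 5 at HT. On all 9 later arrays 93 members were well above background, and 2 (HH_Contig1659 and HH_166850858) were so on none. The transcripts were thus lower from GR on, as the rule required, and for most of them a signal persisted.

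**Figure D2:**
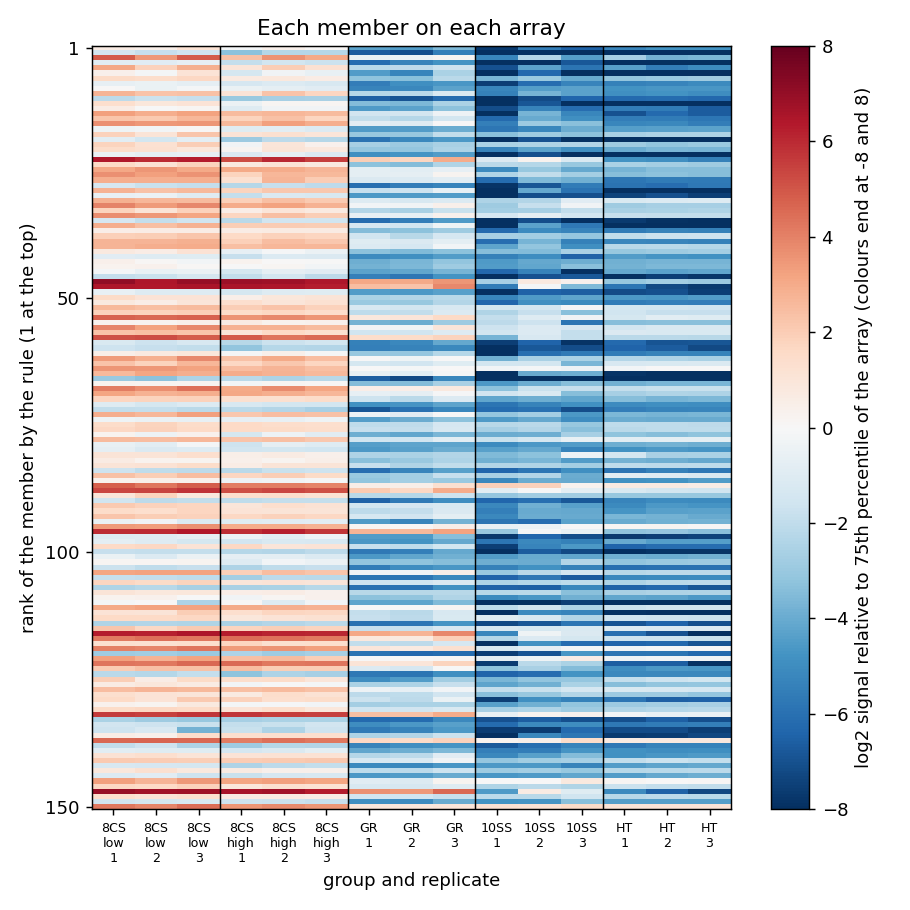
Each of the 150 members (rows, by rank) on each of the 15 arrays (columns, 3 per group), coloured by log2 signal relative to the 75th percentile of the array. Red is above and blue below the 75th percentile. All 150 rows are redder in the 8CS columns than at GR, 10SS and HT, and the mean of 21 members lies above that percentile at GR.

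The difference that ranked the members ran from 4.88 for the first to 2.89 for the last, with a median of 3.37, a factor of 29.4, 7.39 and 10.3. Just inside the limit lay HH_Contig119, HH_90605292 and HH_75738072, at 2.90, 2.90 and 2.89. Just outside it lay HH_90600141, HH_Contig296 and HH_166851127, at 2.88, 2.88 and 2.87. The limit therefore cut through a continuous range.

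None of the 10 members of highest rank has a name in the tables used here. HH_166850870, the first, had 0.66, 0.49 and 1.14 in low quality 8CS, -0.14, 0.39 and 0.07 in high quality 8CS, -4.29, -4.46 and -3.57 at GR, -7.64, -5.54 and -6.50 at 10SS, and -5.29, -4.82 and -4.82 at HT. It was lowest at 10SS, and its HT arrays lay below its GR arrays, although with spike-in scaling it rose at HT relative to GR by 1.78. HH_Contig1659, the second, had -1.41, -1.86 and -1.59 in low quality 8CS and -3.31, -2.29 and -2.29 in high quality 8CS. It was not well above background on any later array, so that low quality 8CS exceeded GR at least 16.01-fold. Bounds given with "at least" here and below are approximate. Some values not well above background lay above the lowest level that was so on their array. HH_Contig96, the third, reached 4.84, 3.47 and 4.86 in low quality 8CS, 2.34, 3.61 and 3.03 in high quality 8CS and -0.52, -0.35 and 0.16 at GR. It fell further by 3.75 (SE 0.64) at 10SS relative to GR (limma, adjusted p = 0.0013). The other 7 were HH_193890000, HH_90603288, HH_Contig1071, HH_Contig988, HH_Contig2921, HH_193888599 and HH_193890077, with differences between 4.61 and 4.36. Of the 10, HH_Contig988 and HH_193888599 passed the threshold neither at 10SS nor at HT relative to GR, with HT differences of -0.10 (SE 0.35) and 0.22 (SE 0.32), and with spike-in scaling both rose at HT, by 2.54 and 2.86.

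A name was available for 20 members, from a list in the study of transcripts up-regulated at 8CS. The study chose that list on these arrays, so that its stage pattern is no independent evidence. Of its 160 probes 43 are members. Roles were assigned to 19 of the 20 names. All 20 fell at 10SS and 19 at HT relative to GR, whereas with spike-in scaling 11 fell at 10SS, and 9 fell and 2 rose at HT.

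Linker histone H1M (HH_Contig1140) belongs to the H1 variants that eggs of fish and frogs store and that bind DNA between nucleosomes. It was the only one of 6 germ line and egg transcripts in the list to rank among the 150. Its level was 6.97, 6.75 and 6.75 in low quality 8CS, 6.61, 6.74 and 6.28 in high quality 8CS, 3.67, 3.46 and 4.62 at GR, -4.52, 0.68 and -0.99 at 10SS, and -5.11, -6.47 and -7.30 at HT. At GR it was still above the 75th percentile of the array, and the 10SS arrays were wide apart. At HT it was about 1188-fold lower than at GR, with 2 of 3 HT arrays well above background (limma, log2 difference -10.21, SE 1.06, adjusted p = 3.5e-05). All 3 HT values lay above the lowest level well above background of their array, so that this size is the fitted difference and no bound.

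Of 11 cell division transcripts in the list, 2 are members. Kinesin family member 20A (HH_90602489) is a motor of the central spindle and acts in cytokinesis. It had 0.61, 0.38 and 1.38 in low quality 8CS, 1.34, 1.35 and 1.32 in high quality 8CS, -2.45, -2.37 and -1.71 at GR, -8.13, -5.17 and -5.77 at 10SS, and -7.68, -7.61 and -7.31 at HT. No HT array was well above background, and HT was at least about 37.9-fold lower than GR.

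Importin alpha (HH_Contig2565), an adaptor that brings proteins with a nuclear localization signal into the nucleus, had 6.40, 5.99 and 6.30 in low quality 8CS, 5.23, 6.04 and 5.56 in high quality 8CS, 1.95, 1.71 and 2.96 at GR, -1.15, 0.25 and -1.23 at 10SS, and -4.80, -4.91 and -5.43 at HT. Its signal exceeded background on each of the 15 arrays, and its groups from GR to HT did not overlap. Relative to GR it differed by -2.92 (SE 0.45) at 10SS and by -7.26 (SE 0.45) at HT (limma, adjusted p = 0.00072 and 3.2e-06). With spike-in scaling the difference was -1.12 at 10SS (limma, adjusted p = 0.055), past the threshold no longer, and -4.62 at HT.

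Of 15 transcripts for RNA and transcription in the list, the longest of the roles, 5 are members, where 43 of the 160 probes of the whole list are. Elongin A (HH_90602129), which raises the elongation rate of RNA polymerase II, had 0.80, 0.50 and 1.00 in low quality 8CS, 1.36, 1.00 and 1.24 in high quality 8CS, -2.99, -3.01 and -2.36 at GR, -6.34, -4.91 and -5.09 at 10SS, and -5.62, -5.48 and -5.55 at HT. B-cell translocation gene 3 (HH_Contig2894), of the antiproliferative BTG/TOB family, averaged 5.60 ± 0.11 in low quality 8CS, 5.57 ± 0.14 in high quality 8CS, 2.57 ± 0.36 at GR, 0.02 ± 0.51 at 10SS, then -0.46 ± 0.21 at HT (SD, n = 3 each). Its 10SS and HT levels were near the 75th percentile of the array. The 30 kDa polypeptide of a general transcription factor (HH_90602956), the 21 kDa subunit of ribonuclease P (HH_Contig1090), an enzyme that trims transfer RNA precursors, and a zinc finger protein (HH_90603133) averaged -5.08, -2.30 and -5.49 at GR. All 5 fell at 10SS relative to GR, none of them with spike-in scaling. At HT 4 fell, and the ribonuclease P subunit differed from GR by -0.91 (SE 0.38, limma adjusted p = 0.056). With spike-in scaling none fell at HT, the differences of elongin A, B-cell translocation gene 3 and the transcription factor polypeptide being -0.13, -0.40 and -0.23, and the ribonuclease P subunit and the zinc finger protein rose by 1.73 and 1.36.

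In signalling, 3 of 9 listed transcripts are members. The G protein subunits alpha 14 (HH_Contig1119) and alpha transducing 3 (HH_90606690) couple receptors in the membrane to intracellular effectors, the second in taste cells of mammals. Alpha 14 had 2.93, 2.38 and 2.78 in low quality 8CS, 1.98, 2.03 and 1.96 in high quality 8CS, -1.37, -1.52 and -0.33 at GR, -8.40, -4.31 and -5.74 at 10SS, and -8.51, -8.77 and -8.91 at HT. Alpha transducing 3 averaged 1.11 ± 0.21 (SD, n = 3) in low quality 8CS and had -0.45, 0.16 and 0.15 in high quality 8CS, -3.49, -3.62 and -2.51 at GR, -8.35, -6.85 and -8.78 at 10SS, and -8.94, -9.29 and -8.90 at HT. Neither was well above background on any HT array, and HT was at least 87.2-fold and 19.8-fold below GR. Lipopolysaccharide-induced TNF factor (HH_90606238), a protein of endosomal membranes, fell by 3.27 (SE 0.56) at 10SS and by 4.66 (SE 0.56) at HT relative to GR (limma, adjusted p = 0.0013 and 7.3e-05).

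Claudin 4 (HH_Contig106), a seal of tight junctions and the only member among 12 membrane, transport and glycosylation transcripts, had 6.26, 6.17 and 6.49 in low quality 8CS, 6.27, 6.12 and 6.01 in high quality 8CS, 3.06, 2.70 and 3.85 at GR, -5.24, -0.33 and -1.16 at 10SS, and -6.02, -7.00 and -7.96 at HT. The course resembled that of linker histone H1M. With 1 of 3 HT arrays well above background, HT was at least about 1031-fold lower than GR (limma, log2 difference -10.20, SE 1.03, adjusted p = 3.0e-05).

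Metabolism held 3 members of 9 listed transcripts. P450 oxidoreductase (HH_Contig3018) passes electrons to cytochrome P450 enzymes. It had 5.90, 5.95 and 6.40 in low quality 8CS, 5.89, 6.22 and 5.69 in high quality 8CS, 2.71, 2.61 and 3.24 at GR, -3.01, -0.15 and -0.61 at 10SS, and -3.19, -3.10 and -3.34 at HT. Agmatine ureohydrolase (HH_193889040), which turns agmatine into the polyamine putrescine, averaged 1.17 ± 0.16 in low quality 8CS, 1.14 ± 0.03 in high quality 8CS, -1.77 ± 0.74 at GR, -4.34 ± 0.85 at 10SS, then -4.67 ± 0.15 at HT (SD, n = 3 each). Ecto-ADP-ribosyltransferase 5 (HH_90602849), of a family that attaches ADP-ribose to proteins, was well above background on all GR arrays, no 10SS array and 1 HT array. All 3 fell at 10SS and at HT relative to GR. With spike-in scaling P450 oxidoreductase fell at both stages, ecto-ADP-ribosyltransferase 5 at 10SS but not at HT (-0.16), and agmatine ureohydrolase at neither (-0.77 and -0.26).

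Of 7 listed transcripts grouped by name alone as ubiquitin ligases and adaptors, tripartite motif-containing 66 (HH_Contig1095) and a kelch repeat-containing protein (HH_Contig2817) are members. The first had 5.08, 5.20 and 4.84 in low quality 8CS, 4.91, 4.28 and 4.55 in high quality 8CS, 1.39, 1.47 and 1.76 at GR, -3.74, -1.28 and -1.91 at 10SS, and -2.18, -2.15 and -2.22 at HT. The second averaged -1.05 ± 0.38 in low quality 8CS, -2.42 ± 0.43 in high quality 8CS and -5.22 ± 0.68 at GR (SD, n = 3 each), and was well above background on 1 of 3 10SS arrays and on no HT array. Of 3 stress, apoptosis and autophagy transcripts, DNA-damage-inducible transcript 4-like (HH_Contig3006), an inhibitor of mTOR signalling in mammals, is a member. It fell by 2.79 (SE 0.38) at 10SS and by 2.73 (SE 0.38) at HT relative to GR (limma, adjusted p = 0.00040 and 0.00018), but with spike-in scaling it differed by -0.996 and -0.09 and passed the threshold at neither stage. The transcript similar to lim domain 7 (HH_Contig2540), with no role assigned, fell by 3.16 (SE 0.47) at 10SS and by 3.75 (SE 0.47) at HT relative to GR, and with spike-in scaling it fell at 10SS but differed by -1.11 at HT (limma, adjusted p = 0.054).

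**Figure D3:**
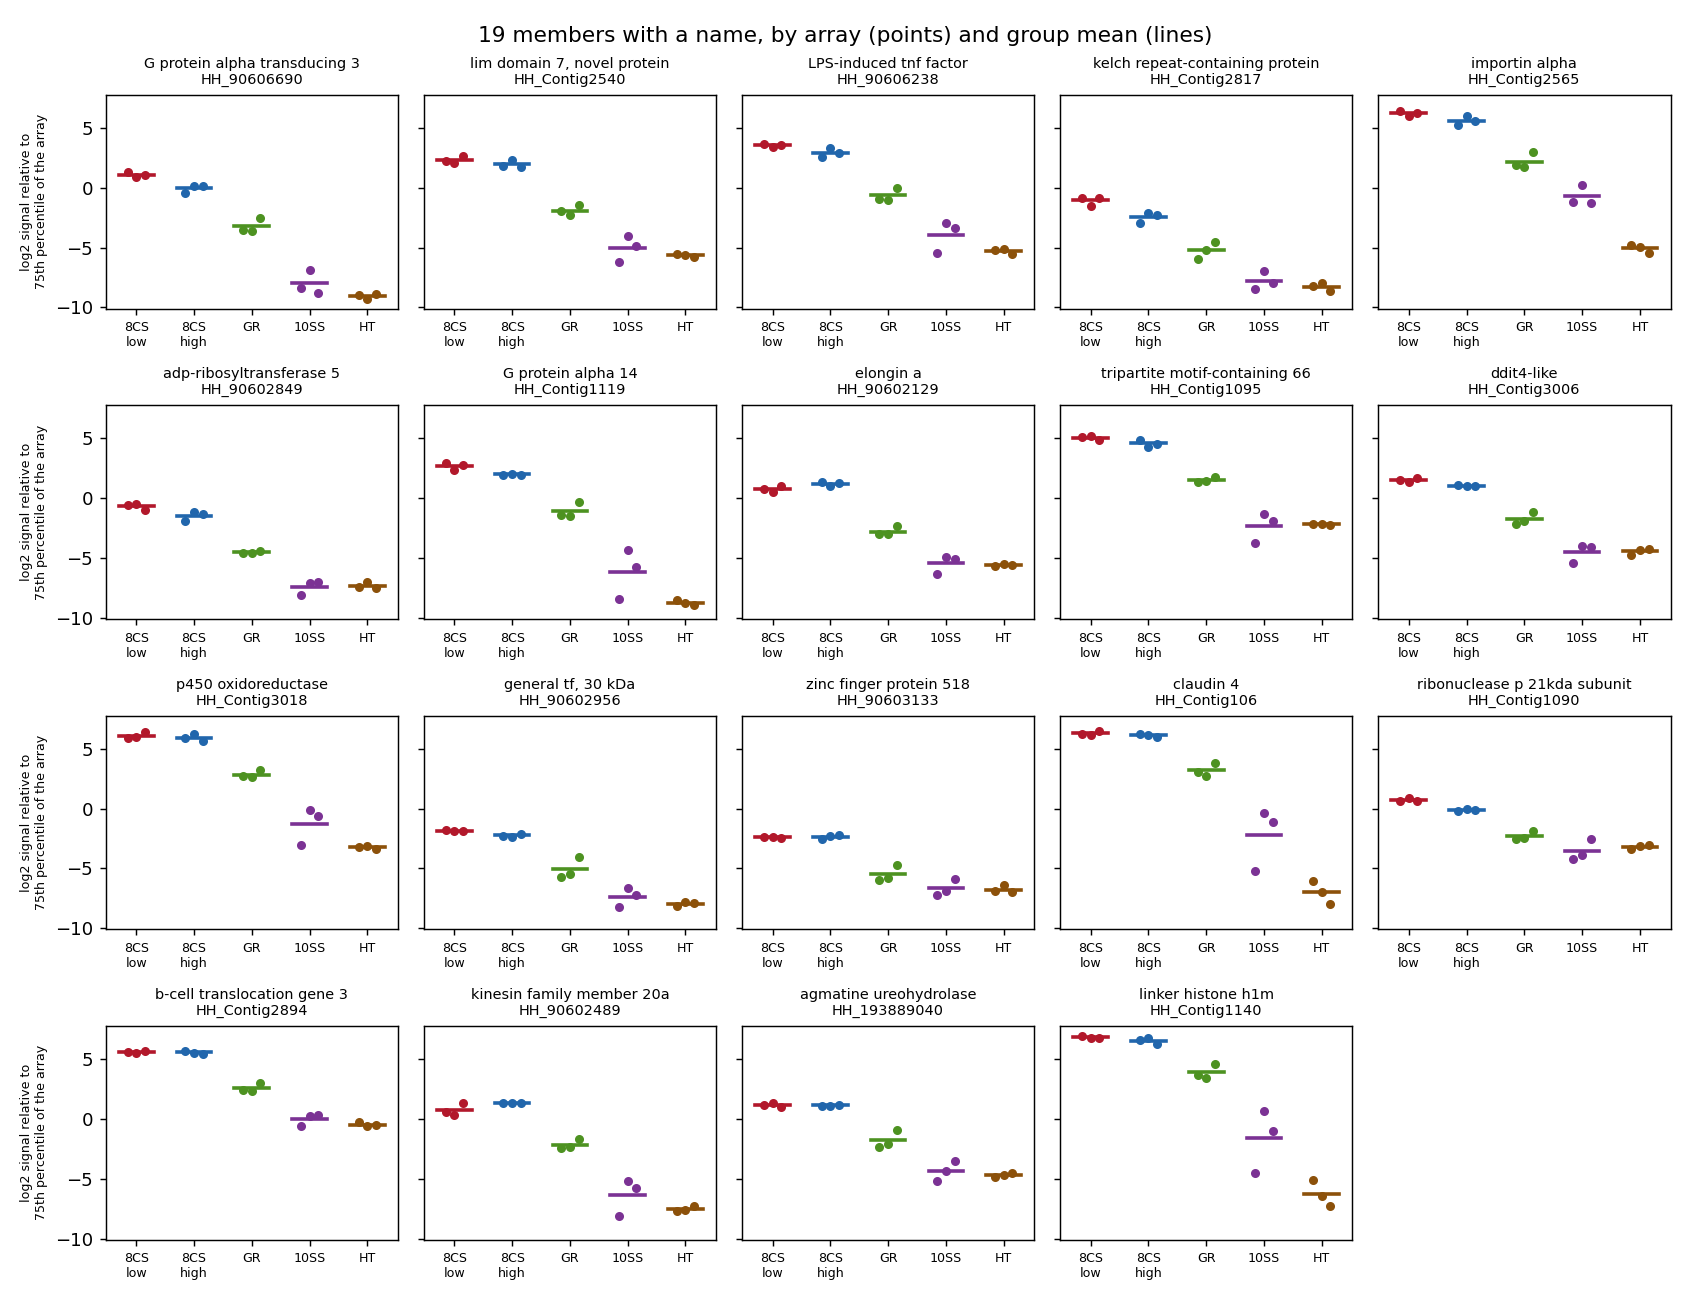
Log2 signal relative to the 75th percentile of the array (vertical axis) of 19 named members, by group from low quality 8CS to HT. Points are the 3 arrays of a group in replicate order and lines are group means. Linker histone H1M and claudin 4 lie at 2.70 or higher on all GR arrays and at -5.11 or lower on all HT arrays.

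Levels of the members after GR were compared between the 3 later stages. The rule limited the highest of their means and not which of them was highest. A rise that made 10SS or HT the highest stage lowered the rank of a probe. The small number of rises after GR on the main scale, and with it the large share of falls, thus follows in part from the choice. The shares over all probes carry no such effect, so that the counts beside them describe the members and are no test of a further decline. GR was the highest later stage for 114 members, HT for 26 and 10SS for 10. At 10SS relative to GR, 88 of the 150 members fell and none rose (limma, adjusted p under 0.05 and at least 2-fold), where 24.1% of all probes were lower and 18.1% higher. For 96 members all 10SS arrays lay below all GR arrays, where 26.6% of all probes did. The median difference was -1.30 over members, -0.23 over all probes tested and -0.45 over the 5219 eligible probes. With spike-in scaling, 37 fell and 50 rose, where 66.7% of all probes were called in either direction, a share not split here. The median difference was then 0.50 over members and 1.46 over all 10180 probes.

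At HT relative to GR, 77 members fell and 2 rose, where 31.4% of all probes were lower and 26.6% higher. For 95 members all HT arrays lay below all GR arrays, where 44% of all probes did. The median difference was -1.01 over members, -0.22 over all probes tested and -0.61 over the 5219 eligible probes. With spike-in scaling, 25 fell and 86 rose, where 81.3% of all probes were called in either direction, a share not split here. The median difference was then 1.63 over members and 2.34 over all 10180 probes. Relative to the median of all 10180 probes, the members differed by -0.96 at 10SS and by -0.72 at HT. Spike-in scaling shifts all probes of an array by the same amount, so that it cannot change these values. Of the 150, 66 fell at both stages relative to GR with no call between 10SS and HT, and 54 passed the threshold in none of the 3 contrasts. The falls at 10SS and at HT include HH_Contig1659 and HH_166850858, well above background on no later array. The lowest level well above background was -5.46, -5.97 and -6.21 on the GR arrays and -7.34, -7.81 and -7.40 on the HT arrays. Without a signal well above background, a lower value need not mean less transcript.

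On slides that held both groups, the median of 10SS minus GR over members was -1.64 on slide 2 and -1.12 on slide 3, with 131 and 121 members lower. HT and GR shared no slide. With slide as a fixed or a random block, 86 and 89 members fell at HT and 16 and 14 rose. Of all probes, 73.1% and 71.9% were called in either direction. On the slide of the HT arrays, 10SS replicate 3 was the only array of another group. With slide as a fixed block, HT was thus tied to GR through that array alone. Without GR replicate 3, the highest array of its group for the members, 77 fell and 2 rose at 10SS, and 69 fell and 3 rose at HT. Of all probes, 37.5% and 55.9% were then called. Without 10SS replicate 3, 93 fell and 2 rose at 10SS, where 57.5% of all probes were called, against 42.2% with every array kept.

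**Figure D4:**
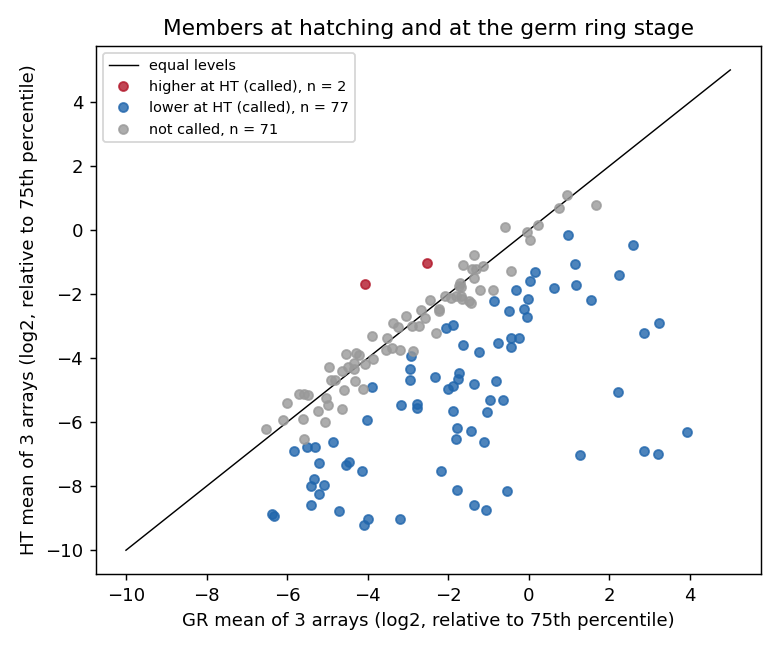
Mean level of each member at HT (vertical axis) against its mean at GR (horizontal axis), both as log2 signal relative to the 75th percentile of the array, n = 3 arrays each. Most members lie on or below the line of equal levels, 77 of them called lower at HT (blue), 71 not called (grey) and 2 called higher (red), whereas with spike-in scaling 25 were called lower and 86 higher. Of all probes, 81.3% were called with spike-in scaling in either direction, a share not split here.

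Relative to 10SS, 12 members rose and 8 fell at HT, where 8.93% and 5.57% of all probes did, a share near that background on the main scale. With spike-in scaling 63 rose and 4 fell, where 31.3% of all probes were called in either direction, a share not split here. The median difference was then 0.89 over members and 0.78 over all 10180 probes. With slide as a fixed or a random block 43 and 40 members were called, where 48.2% and 44.2% of all probes were. On the main scale the median difference was 0.05 over members. The split turned with quantile normalization, to 4 higher and 15 lower, and without 10SS replicate 1, to 6 higher and 19 lower. The count rested on single arrays, with 5 to 7 members called when any HT array was left out. On slide 5, which held all HT arrays and 10SS replicate 3, the median was -0.27.

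The 5 members with the lowest fitted differences between HT and GR were linker histone H1M, claudin 4, G protein alpha 14 and the unnamed HH_Contig1243 and HH_Contig2899. Since their HT arrays were in part or, for alpha 14, in full not well above background, their sizes are approximate and give no order. The bound of alpha 14 is below the 153-fold of importin alpha, which was measured on all arrays. HH_Contig1243 had 6.49, 6.41 and 6.53 in low quality 8CS, 6.56, 6.45 and 6.27 in high quality 8CS, 2.44, 2.31 and 3.83 at GR, -5.56, -0.13 and -3.50 at 10SS, and -5.80, -7.20 and -7.67 at HT. With 1 of 3 HT arrays well above background it was at least about 808-fold lower at HT than at GR. HH_Contig2899 was at least 282-fold lower, with 2 of 3 HT arrays well above background. These 5 fell with spike-in scaling as well, with differences between -5.02 and -7.58.

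Only 2 members rose between GR and HT on the main scale, both unnamed contigs. HH_Contig1754 averaged 1.37 ± 0.71 (SD, n = 3) in low quality 8CS and had 1.39, 1.44 and 0.97 in high quality 8CS, -4.96, -4.47 and -2.76 at GR, -3.63, -3.18 and -3.08 at 10SS, and -1.90, -1.68 and -1.46 at HT. It was 2.38 (SE 0.47) higher at HT than at GR (limma, adjusted p = 0.0012). HH_Contig2870 averaged 2.27 ± 0.25 (SD, n = 3) in low quality 8CS and had 1.73, 1.99 and 1.50 in high quality 8CS, -2.96, -2.72 and -1.87 at GR, -2.61, -2.33 and -3.96 at 10SS, and -0.87, -1.03 and -1.15 at HT. It was 1.50 (SE 0.41) higher at HT than at GR (adjusted p = 0.0083). Both kept a signal well above background throughout the 15 arrays. At HT both stayed below their low quality 8CS level, as the rule required of every member. With normexp, a model-based background correction, neither passed the threshold (0.87, limma adjusted p = 0.080, and 0.80, adjusted p = 0.13), whereas both did when outlier backgrounds were replaced first (1.26, adjusted p = 0.0025, and 1.03, adjusted p = 0.011). With spike-in scaling both rose, by 5.02 and 4.14.

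On the main scale, the differences after GR varied across the members. Of the 43 members in the study's list, all fell at 10SS and 42 at HT relative to GR, and none rose. Of the other members, 45 fell at 10SS and 35 fell and 2 rose at HT. The median of HT minus GR was -3.66 in the 43 and -0.33 in the others, and the median level at HT was -6.20 and -3.58. The study kept transcripts up-regulated at 8CS alone on these arrays, so that this difference was not tested. With spike-in scaling, 20 of the 43 fell and 3 rose at HT.

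Members were also spread unevenly over the sources of the probes, which the rule did not use. Names that start with HH_193, single expressed sequence tags numbered in that range, supplied 35 members of 446 probes, or 7.85%. Assembled contigs supplied 52 of 3065 (1.70%), names with HH_90 supplied 48 of 4987 (0.963%), and names with HH_62 none of 243. Among eligible probes the shares were 13.5% for HH_193, 2.73% for contigs and 2.14% for HH_90. Relative to GR, 22 of the 35 HH_193 members fell at 10SS and 19 at HT, against 34 and 30 of the 52 contigs.

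Some members may measure the same transcript. In the study's list a single sequence tag is paired with HH_Contig96, HH_90988658, HH_Contig2806 and HH_Contig2987, and another with HH_90603204 and HH_Contig2808. All 4 of the first set and both of the second fell at 10SS and at HT relative to GR. They were counted as separate members.

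Low and high quality 8CS embryos were compared to see whether the store differed with quality. The low quality mean entered the rule, and the choice favours members with a high level there. Of the 150 members none passed the threshold (limma on 6 arrays, adjusted p under 0.05 and at least 2-fold), where 0.16% of all probes were higher and 1.01% lower in low quality 8CS. An unadjusted p under 0.05 was found for 65 members and for 31.1% of all probes. The lowest adjusted p was 0.051, for HH_193889086, which was 1.00 higher in low quality 8CS.

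The differences leaned one way. The mean was higher in low quality 8CS for 132 members and higher in high quality 8CS for 18, with a median difference of 0.42. Over all 5219 eligible probes the median difference was 0.08, with 56.0% of them higher in low quality 8CS. For 80 members all low quality arrays lay above all high quality arrays, where 18.3% of all probes did, and for 1 member, HH_166850858, they lay below. On slide 1 the median was 0.47 and on slide 4 it was 0.49. With spike-in scaling, which raised the median difference of all probes to 0.55, the member median was 1.13 and 56 members were called higher. That count carries the shift of all probes, and without the share of all probes called beside it nothing is read from it. Relative to the median of all probes, the members differed by 0.58 on the main scale and with spike-in scaling alike. Since the rule itself selects in this direction, these counts support no difference between the qualities.

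Among named members the widest gaps were those of the kelch repeat-containing protein (1.38, SE 0.30, limma adjusted p = 0.075), G protein alpha transducing 3 (1.16, SE 0.23, adjusted p = 0.072) and the ribonuclease P subunit (0.88, SE 0.16, adjusted p = 0.062). At the other end, kinesin family member 20A differed by -0.55 (SE 0.28, adjusted p = 0.22) and elongin A by -0.43 (SE 0.20, adjusted p = 0.19). Linker histone H1M (0.28, SE 0.19) and claudin 4 (0.18, SE 0.17) differed by less than 1 on the log2 scale.

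**Figure D5:**
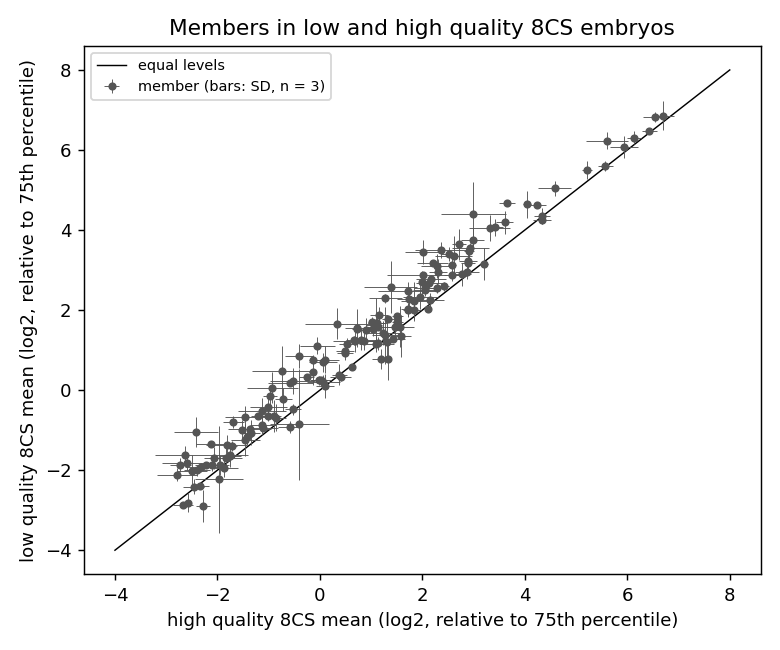
Mean level of each of the 150 members in low quality 8CS (vertical axis) against high quality 8CS (horizontal axis), as log2 signal relative to the 75th percentile of the array, with SD over 3 arrays as bars. Most points, 132, lie above the line of equal levels, and none of the differences passed the threshold.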

How the data were processed

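For each of the 15 1-colour arrays the authors deposited scanner output, in which spot intensity is on a linear scale after background subtraction. The file headers name Feature Extraction version 10.7.1.1 and the submitters' processing notes 7.2. Their own normalization, deposited as log2 values of 9017 probes (75th percentile, centred on the median of each probe), served as an alternative.

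Processed signals were taken as log2 minus the 75th percentile of the array, without control and outlier spots, and averaged per probe name. A probe was kept if any array of the fit had it at the 20th percentile or higher (9283 for the stages, 8737 for the qualities). Tests used limma 3.58.1 in R 4.3.3 with Benjamini-Hochberg adjustment over all kept probes. A probe was well above background on an array when over 0.5 of its spots were. Where an array of the dimmer group was not, the fold is an approximate bound ("at least"): the bright mean over the mean of, per array, the higher of the probe's value and the lowest level well above background. That level is the lowest over all probes of the array, and the limit for a single probe can be higher.

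The members and the role lists were chosen with earlier results of these data known. Members named are those with a name in the tables, the 10 of highest rank, 3 on each side of the limit, and at most 5 called in each direction between HT and GR and between the qualities. Values of 1 named member are not reported here. The calculations were tested on simulated data. The files give no genome build, so no coordinates are given, and no probe sequence was used here. Alternatives are listed in the closing section.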

Additional observations from a re-analysis of the deposited data

How the results depend on the processing

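Replicate numbers did not pair the arrays of the groups tested (correlations of deviations between -0.23 and 0.10 among GR, 10SS and HT, and between -0.14 and -0.03 between qualities). Same-numbered arrays of high quality 8CS and 10SS did deviate together (0.35, 0.45 and 0.57), a contrast given with no test. With the replicate number as a block, 89 members were called for 10SS minus GR, 79 for HT minus GR, 20 for HT minus 10SS and 0 between qualities.

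Spike-in scaling called 87 (50 higher), 111 (86 higher), 67 (63 higher) and 56 (all higher) in that order. Of all probes it called 66.7%, 81.3% and 31.3% for the contrasts between GR, 10SS and HT. The share between qualities is not given here, so that nothing is read from the 56. It gave medians of 3.02 for high quality 8CS minus 10SS, 1.69 for high quality 8CS minus HT and 2.83 for low quality 8CS minus the highest later mean, and the rule then chose 78 of the same probes. Quantile normalization called 19 for HT minus 10SS (4 higher) and 1 between qualities, with a median of 4.69 for high quality 8CS minus HT. The deposited table of log2 values called 19 (4 higher) and 1, with a median of 4.66. Normexp called 1 for HT minus 10SS, and gave medians of 2.22, 3.46 and 3.53 for high quality 8CS minus GR, 10SS and HT and 2.70 for low quality 8CS. With outlier backgrounds replaced, it called 12 (3 higher) for HT minus 10SS and 2 between qualities, with medians of 2.52, 3.65, 3.42 and 2.91. Slide as a fixed block called 102 (16 higher) for HT minus GR and 43 (19 higher) for HT minus 10SS, and as a random block 103 (14 higher), 40 (17 higher) and 1 between qualities. Of all probes, the fixed block called 73.1% for HT minus GR and 48.2% for HT minus 10SS, and the random block 71.9% and 44.2%. Between qualities, the filter in every array of a group called 3, all 15 arrays in one fit 4, and a variance prior with trend 5, all higher in low quality 8CS.

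Leaving out 1 array gave 79 to 95 members called for 10SS minus GR, 72 to 84 for HT minus GR, 5 to 31 for HT minus 10SS and 0 to 4 between qualities. The 4 were called without high quality 8CS replicate 3. HT minus 10SS counted 25 (6 higher) without 10SS replicate 1, 31 (20 higher) without 10SS replicate 3, and 6, 7 and 5 without HT replicates 1, 2 and 3. The rule chose 140 to 150 of the same probes, and the median of high quality 8CS minus HT was 4.01 to 4.20. The median over spots, no filter and no fold limit left these counts within 1.5 times.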
